A study of Mus musculus with 6 samples.

Results

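Messenger RNA of 10 genes that control passage through the G1 phase of the cell cycle was followed in mouse leukaemia cells after knockdown of Tet1. The genes encode the D-type cyclins (Ccnd1, Ccnd2 and Ccnd3), their kinases (Cdk4 and Cdk6), the CIP/KIP inhibitors p21 (Cdkn1a) and p27 (Cdkn1b), the INK4 inhibitors p18 (Cdkn2c) and p19 (Cdkn2d), and the retinoblastoma protein (Rb1). They were chosen by symbol, with earlier results of these data known, and all 10 were found among the 13839 genes of the deposited table. The cells were MLL-ENL-ERtm, a mouse line transformed by the MLL-ENL fusion joined to a tamoxifen-responsive oestrogen receptor domain, with acute monocytic leukaemia given as its tumour type. The libraries of the knockdown group, shTet1, came from cells with retroviral short hairpin RNAs against Tet1, and those of the control group, shNS, from cells with a scrambled hairpin in place of them (3 libraries each). Cells of both groups were kept in puromycin for 3 passages and adapted to SILAC medium before RNA was taken. The labels give no genotype, age or clone, and do not say whether the receptor ligand was present or whether the libraries came from separate cultures. The p-values therefore set the difference between the groups only against the spread among libraries of a group, and that spread may be technical.

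As background, D-type cyclins activate CDK4 and CDK6, and the active kinases phosphorylate the retinoblastoma protein, which otherwise binds E2F transcription factors and restrains the genes of S phase. INK4 proteins bind CDK4 and CDK6 and keep cyclin D from them, whereas CIP/KIP proteins bind assembled cyclin and kinase complexes, above all those of CDK2. Myeloid cells leave the cell cycle as they mature, and in human leukaemias with rearranged MLL, CDK6 is known to be needed for growth.

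In the knockdown, the transcripts of both cyclin D kinases and of Ccnd1 fell, while those of Cdkn1a, Cdkn2c, Cdkn2d and Rb1 rose. Ccnd1 changed most, to 36.8% of its shNS level, and Cdk4 stood at 58.7% and Cdk6 at 64.9% of theirs. The members that rose stood between 132% (Cdkn2c) and 155% (Cdkn2d) of their shNS level. Ccnd2, Ccnd3 and Cdkn1b did not pass the test. Of the 10 members, all of which passed the filter of at least 1 FPKM in at least 3 libraries, 4 were thus higher and 3 lower at a limma adjusted p under 0.05. FPKM are read numbers divided by a gene's length and by the size of its library. Over all 11646 genes tested, 53.1% were called, 19.4% higher and 33.7% lower, so the share of members called lay near to this background in the lower direction and above it in the higher. With a median-of-ratios scaling of the libraries the background was 48.5%, split into 24.8% higher and 23.7% lower, and the members were 5 higher and 3 lower. The 2 groups did not overlap for 7 of the 10 members, against 61.8% of all genes tested.

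**Figure D1:**
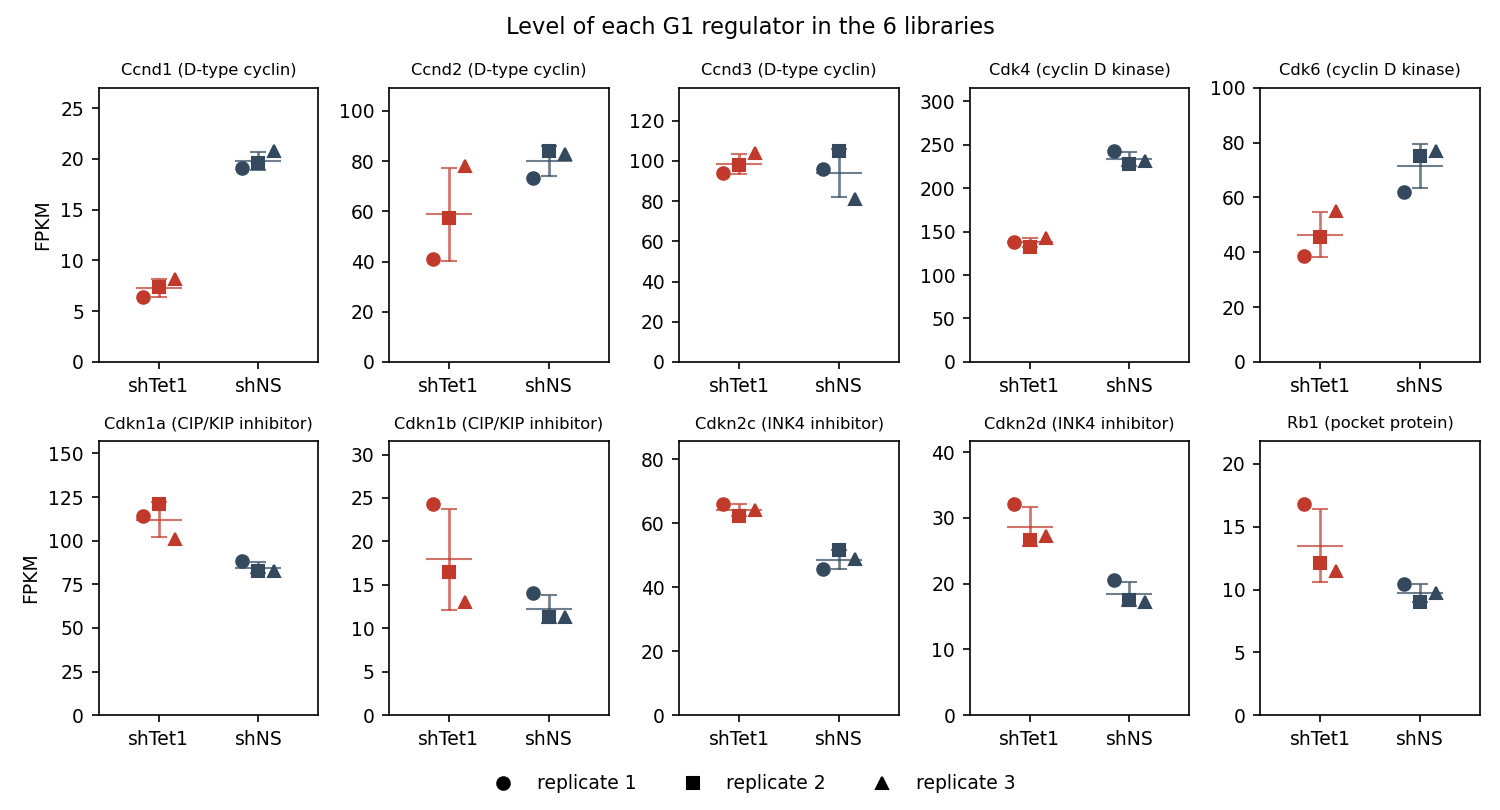
FPKM (vertical axis, from 0) of each of the 10 genes in the 3 shTet1 libraries, left, and the 3 shNS libraries, right; marker shapes give the replicate number, and bars the mean and SD. Ccnd1, Cdk4 and Cdk6 lay lower in every shTet1 library than in any shNS library, and Cdkn1a, Cdkn2c, Cdkn2d and Rb1 lay higher, whereas the groups of Ccnd2, Ccnd3 and Cdkn1b overlapped.

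Library totals over the genes of the table ran between 15873632 and 18592139 reads. Tet1 itself stood at 0.0982, 0.155 and 0.139 FPKM in shTet1 replicates 1, 2 and 3, against 0.489, 0.392 and 0.446 FPKM in shNS replicates 1, 2 and 3, which rests on between 25 and 128 reads. It was under the filter, the groups did not overlap, and a two-sided exact permutation test gave p = 0.1, the least possible with 3 libraries a group. On the recovered reads, limma-voom gave Tet1 a log2 change of -1.77 (SE 0.23, limma adjusted p = 0.000328), and the authors' deposited table gives -1.62 (adjusted p 1.88e-09). Over all tested genes the log2 change had a median of -0.13, and the median-of-ratios scaling shifted it by 0.12. All 10 monocyte and macrophage markers rose, with a summed level between 983 and 1239 FPKM in shTet1 and between 285 and 340 FPKM in shNS. Of 9 genes of myeloid leukaemia cell identity, all of which were expressed, 4 rose and 3 fell. Summed markers of other cell types were low: at most 2.33 FPKM in shTet1 and 4.40 FPKM in shNS for B cells, 1.66 FPKM in shTet1 and 3.17 FPKM in shNS for erythroid cells, 0.499 FPKM in shTet1 and 0.981 FPKM in shNS for T cells (Cd3d alone), and 0.405 FPKM in shTet1 and 0.184 FPKM in shNS for stroma. Other genes of these 4 lists, among them Cd3e and Col1a1, were not analysed here. The monocyte markers rose alongside the 4 members called higher and the 3 called lower, and their part in these results was not tested. In such bulk RNA, fewer cells of a type and less RNA per cell cannot be told apart.

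Among the D-type cyclins, the regulatory subunits that carry growth signals to CDK4 and CDK6, only Ccnd1 passed the test. Ccnd1 (gene ID 12443, chromosome 7, 144929931 to 144939831, GRCm38) had 6.39, 7.35 and 8.18 FPKM in shTet1, against 19.1, 19.6 and 20.8 FPKM in shNS. Every shTet1 library lay below every shNS library, with a wide gap between the groups. The means were 7.30 ± 0.898 FPKM in shTet1 and 19.8 ± 0.868 FPKM in shNS (SD, n = 3 each), a log2 change of -1.33 (SE 0.10, limma adjusted p = 7.32e-05). Fold changes here and below are on the log2(FPKM + 1) scale, which understates those of genes at low levels.

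Ccnd2 (gene ID 12444, chromosome 6, 127125162 to 127152188), the D-type cyclin known as a target of MYC, had 41.2, 57.4 and 78.1 FPKM in shTet1, against 73.3, 84.1 and 83.0 FPKM in shNS. The shTet1 libraries were widely spread, and replicate 3 reached into the shNS range. The means were 58.9 ± 18.5 FPKM in shTet1 and 80.1 ± 5.94 FPKM in shNS (SD, n = 3 each), and the log2 change of -0.48 did not pass (SE 0.20, 95% interval -0.95 to -0.01, limma adjusted p = 0.0781). With replicate numbers as pairs, in which shTet1 was lower in 3 of 3, it passed (limma adjusted p = 0.0188). In that paired fit 64.2% of all tested genes passed, 23.1% higher and 41.0% lower. It also passed without shTet1 replicate 3 (log2 change -0.71, limma adjusted p = 0.00754). Without shTet1 replicate 1 the log2 change was -0.25. With pairs and the median-of-ratios scaling together it did not pass (limma adjusted p = 0.0543).

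Ccnd3 (gene ID 12445, chromosome 17, 47505051 to 47599689), the D-type cyclin prominent in maturing lymphoid and erythroid cells, had 94.1, 97.9 and 104 FPKM in shTet1, against 96.1, 105 and 81.2 FPKM in shNS. The groups overlapped throughout, and only in pair 3 was shTet1 higher. The means were 98.5 ± 4.76 FPKM in shTet1 and 94.1 ± 12.0 FPKM in shNS (SD, n = 3 each), with a log2 change of 0.07 (95% interval -0.17 to 0.32, limma adjusted p = 0.585). That interval does not reach the fall of Ccnd1, and the sign turned to -0.03 without shNS replicate 3.

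Each cyclin's share of the cyclin D transcripts does not depend on how libraries are scaled. Ccnd1 made up 4.51, 4.52 and 4.31% of the summed cyclin D FPKM in shTet1, against 10.1, 9.41 and 11.2% in shNS. Ccnd3 made up 66.4, 60.2 and 54.5% in shTet1, against 51.0, 50.3 and 43.9% in shNS. Neither share overlapped between the groups. The share of Ccnd2 did overlap, at 29.1, 35.3 and 41.1% in shTet1 and 38.9, 40.3 and 44.9% in shNS. The summed level was 165 ± 24.1 FPKM in shTet1 and 194 ± 12.8 FPKM in shNS (SD, n = 3 each), and its groups overlapped as well. By mean level, Ccnd3 was the leading D-type cyclin transcript in both groups. It lay above Ccnd2 in every shTet1 library. In shNS the means were 94.1 FPKM for Ccnd3 and 80.1 FPKM for Ccnd2. Their ranges overlapped there, and in shNS replicate 3 Ccnd2 (83.0 FPKM) lay above Ccnd3 (81.2 FPKM).

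**Figure D2:**
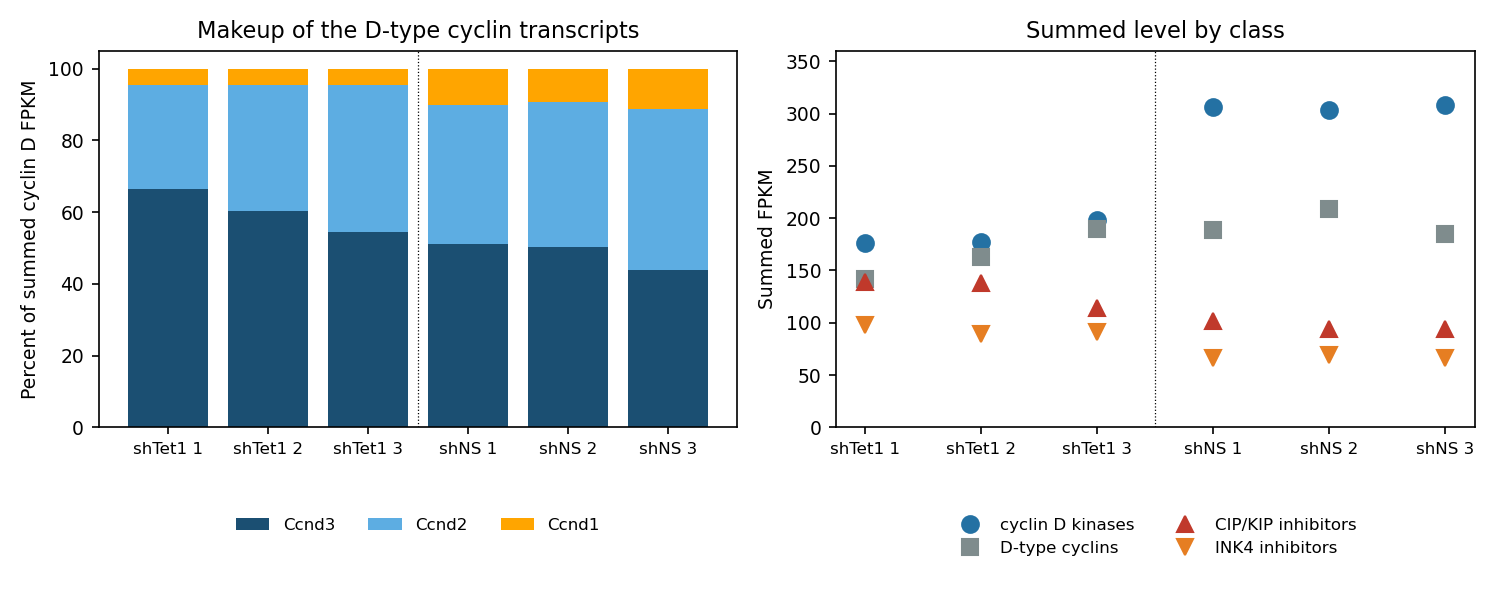
Left, percent of the summed cyclin D FPKM taken by Ccnd3, Ccnd2 and Ccnd1 in each of the 6 libraries (bars from 0). Right, summed FPKM of the members of each class in the same libraries. The kinases lie between 176 and 198 in shTet1 and between 303 and 308 in shNS. The members of both inhibitor classes sum higher in every shTet1 library than in any shNS library.

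Both kinases were lower in the knockdown. Cdk4 (gene ID 12567, chromosome 10, 127063535 to 127067288), the most abundant of the 10 transcripts in both groups, had 138, 132 and 143 FPKM in shTet1, against 243, 228 and 231 FPKM in shNS. All shTet1 libraries lay far below all shNS libraries, and the libraries of a group lay close together. The means were 138 ± 5.67 FPKM in shTet1 and 234 ± 8.17 FPKM in shNS (SD, n = 3 each), a log2 change of -0.76 (SE 0.07, limma adjusted p = 0.000181). Cdk6 (gene ID 12571, chromosome 5, 3341004 to 3531008), the cyclin D kinase prominent in blood progenitors, had 38.6, 45.4 and 55.0 FPKM in shTet1, against 62.1, 75.0 and 77.0 FPKM in shNS. The groups did not overlap, although the highest shTet1 library came near the lowest shNS library. Its means were 46.3 ± 8.26 FPKM in shTet1 and 71.4 ± 8.11 FPKM in shNS (SD, n = 3 each), a log2 change of -0.62 (SE 0.14, limma adjusted p = 0.00753). Cdk4 took 74.9 ± 2.97% of the summed kinase FPKM in shTet1 and 76.6 ± 2.63% in shNS (SD, n = 3 each), and these shares overlapped. The difference in share, -1.75 percentage points (shTet1 minus shNS), was -3.34 without shTet1 replicate 1, -0.408 without shTet1 replicate 3 and -0.228 without shNS replicate 1.

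The promoter windows of the 2 kinases are shown for their E-boxes, which are many in the window of Cdk4. RefSeq promoter windows (GRCm38.p6), 250 bases before to 50 after an annotated start, were matched for 7 of the 10 genes, in 10 windows; Ccnd1, Ccnd2 and Rb1 had none. Capitals mark the E-box CACGTG, the core word read by MYC and MAX and its own reverse complement, and the GC box GGGCGG or its reverse complement CCGCCC, a word read by SP1. The Cdk4 window is chr10:127063285-127063584 and the Cdk6 window chr5:3343643-3343942, both on the plus strand.
Cdk4: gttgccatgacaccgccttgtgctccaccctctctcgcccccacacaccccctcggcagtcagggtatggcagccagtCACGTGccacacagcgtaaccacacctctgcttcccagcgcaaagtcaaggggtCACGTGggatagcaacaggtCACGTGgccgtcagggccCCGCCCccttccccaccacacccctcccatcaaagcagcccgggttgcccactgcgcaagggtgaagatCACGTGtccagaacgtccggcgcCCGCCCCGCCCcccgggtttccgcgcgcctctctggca
Cdk6: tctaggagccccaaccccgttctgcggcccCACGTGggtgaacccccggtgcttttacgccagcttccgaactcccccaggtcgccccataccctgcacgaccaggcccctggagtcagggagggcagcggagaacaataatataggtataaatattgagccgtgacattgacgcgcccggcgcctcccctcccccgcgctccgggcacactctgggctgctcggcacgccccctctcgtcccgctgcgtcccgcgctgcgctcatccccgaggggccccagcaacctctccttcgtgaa
The Cdk4 window held 4 E-boxes, whose first bases lay 172, 118, 98 and 11 bases before the start. Of 32851 promoter windows of this length, 7.15% held at least 1 E-box and 8 windows (0.024%) held at least 4. Cdk6 had 1 E-box, 220 bases before the start. No other member window held an E-box except the one at the downstream start of Cdkn2c, with 1 whose first base lay 34 bases after the start. In human cells, MYC is known to bind E-boxes of the CDK4 promoter, but a word match in these windows is a description and not evidence of binding. No member window held any of the E2F words TTTCCCGC, TTTGGCGC, TTTCGCGC or TTTGCCGC on either strand, which 2.26% of all windows did.

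**Figure D3:**
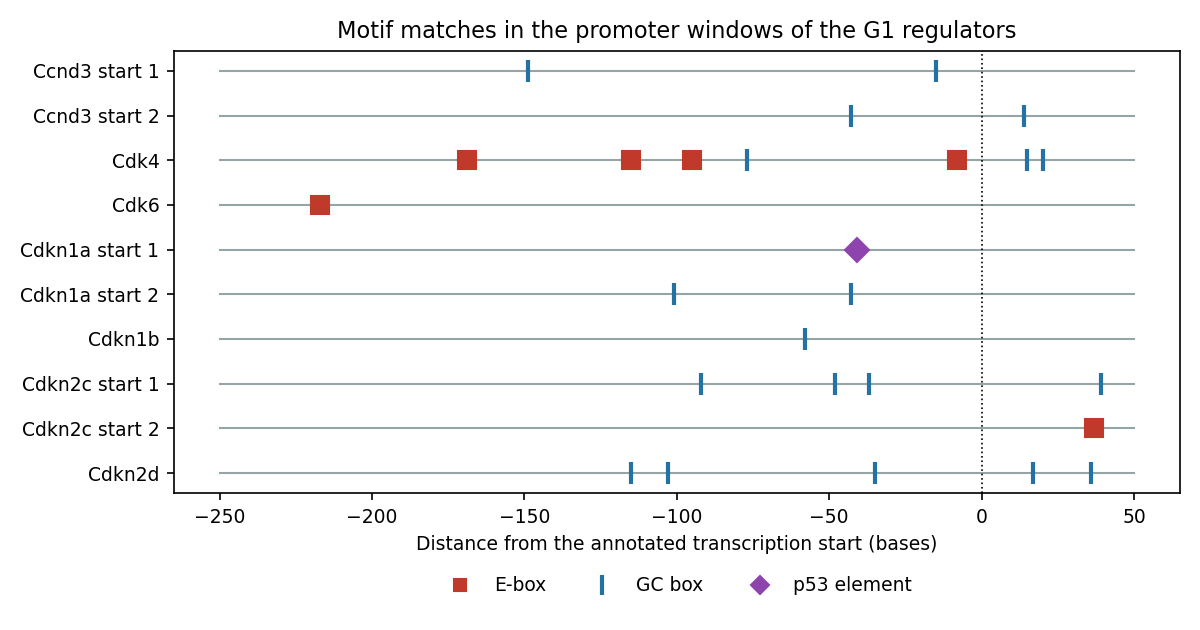
Centres of the motif words (horizontal axis, bases from the annotated start at 0) in the 10 promoter windows of 7 member genes; genes with 2 annotated starts have 2 lines, upstream start first. Cdk4 holds 4 E-boxes, Cdkn2d 5 GC boxes and the upstream window of Cdkn1a a p53 element.

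Of the CIP/KIP inhibitors, Cdkn1a rose in the knockdown, and Cdkn1b passed the test only under some settings. Cdkn1a (gene ID 12575, chromosome 17, 29090979 to 29100722), which encodes p21, the classic target of p53, had 114, 121 and 101 FPKM in shTet1, against 88.1, 82.7 and 82.6 FPKM in shNS. Every shTet1 library was above every shNS library. The means were 112 ± 9.95 FPKM in shTet1 and 84.4 ± 3.14 FPKM in shNS (SD, n = 3 each), a log2 change of 0.40 (SE 0.09, limma adjusted p = 0.00623). Cdkn1a took 86.3 ± 3.40% of the summed CIP/KIP FPKM in shTet1 and 87.4 ± 1.02% in shNS (SD, n = 3 each), and these shares overlapped.

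Cdkn1b (gene ID 12576, chromosome 6, 134920401 to 134925525), which encodes p27, a brake on CDK2 in resting cells, had 24.3, 16.5 and 13.0 FPKM in shTet1, against 14.1, 11.3 and 11.3 FPKM in shNS. Replicate 1 was the highest library in each group, and shTet1 replicate 3 lay within the shNS range. The means were 18.0 ± 5.79 FPKM in shTet1 and 12.2 ± 1.62 FPKM in shNS (SD, n = 3 each), and the log2 change of 0.48 did not pass (SE 0.20, 95% interval 0.01 to 0.95, limma adjusted p = 0.0789). With replicate numbers as pairs, where shTet1 was higher in 3 of 3, it passed (limma adjusted p = 0.00954). It also passed with the median-of-ratios scaling (limma adjusted p = 0.0399), without shTet1 replicate 3 (limma adjusted p = 0.0183) and without both replicate 1 libraries (log2 change 0.35, limma adjusted p = 0.0416). Without shTet1 replicate 1 the log2 change was 0.25, and it did not pass (limma adjusted p = 0.143).

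The upstream promoter window of Cdkn1a, chr17:29090729-29091028 on the plus strand, is shown because it carries an element of the form that p53 reads. Capitals mark a p53 element of 2 copies of ACATGT with 4 bases between them, searched on both strands and chosen after the window had been seen. That word reads the same on either strand.
Cdkn1a: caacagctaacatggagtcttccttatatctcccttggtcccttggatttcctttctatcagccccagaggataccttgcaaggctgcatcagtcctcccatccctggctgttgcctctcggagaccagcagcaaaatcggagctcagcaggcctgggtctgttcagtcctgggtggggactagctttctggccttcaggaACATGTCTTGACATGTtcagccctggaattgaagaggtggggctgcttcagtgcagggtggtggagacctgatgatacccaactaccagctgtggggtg
The element began 49 bases before the upstream start. This exact word occurred in 4 of 32851 windows (0.0122%). Because it was chosen after this window had been seen, the count does not tell how common p53 elements of other forms are. The second window of Cdkn1a, at the downstream start, held no match to this word, and other forms were not searched.

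Both INK4 inhibitors among the members rose. The other INK4 genes, Cdkn2a and Cdkn2b, are counted below with the other CDK inhibitors and did not pass (limma adjusted p = 0.329 and 0.129). Cdkn2c (gene ID 12580, chromosome 4, 109660876 to 109666756), which encodes p18, had 66.0, 62.2 and 64.1 FPKM in shTet1, against 45.6, 51.6 and 48.8 FPKM in shNS. The groups were clearly apart, and the shTet1 libraries were close together. The means were 64.1 ± 1.91 FPKM in shTet1 and 48.7 ± 2.97 FPKM in shNS (SD, n = 3 each), a log2 change of 0.39 (SE 0.08, limma adjusted p = 0.00410). Cdkn2d (gene ID 12581, chromosome 9, 21288459 to 21291421), which encodes p19 of the INK4 family, had 32.1, 26.7 and 27.2 FPKM in shTet1, against 20.6, 17.5 and 17.2 FPKM in shNS. Here too no library of one group entered the range of the other, and replicate 1 was the highest in each. Its means were 28.6 ± 3.01 FPKM in shTet1 and 18.4 ± 1.89 FPKM in shNS (SD, n = 3 each). The log2 change of 0.61 (SE 0.11, limma adjusted p = 0.00233) was nearly the same in the 3 pairs, at 0.62, 0.58 and 0.63.

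The promoter windows of the 2 INK4 members, both of which were called higher, are shown with GC boxes in capitals. Both are on the minus strand, Cdkn2c at chr4:109666707-109667006 (its upstream start) and Cdkn2d at chr9:21291160-21291459.
Cdkn2c: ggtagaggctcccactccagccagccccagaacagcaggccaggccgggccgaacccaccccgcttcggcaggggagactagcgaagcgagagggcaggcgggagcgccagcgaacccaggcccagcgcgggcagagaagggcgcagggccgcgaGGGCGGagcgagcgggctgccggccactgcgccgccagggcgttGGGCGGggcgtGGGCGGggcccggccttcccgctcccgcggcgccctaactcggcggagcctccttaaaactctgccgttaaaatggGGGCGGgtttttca
Cdkn2d: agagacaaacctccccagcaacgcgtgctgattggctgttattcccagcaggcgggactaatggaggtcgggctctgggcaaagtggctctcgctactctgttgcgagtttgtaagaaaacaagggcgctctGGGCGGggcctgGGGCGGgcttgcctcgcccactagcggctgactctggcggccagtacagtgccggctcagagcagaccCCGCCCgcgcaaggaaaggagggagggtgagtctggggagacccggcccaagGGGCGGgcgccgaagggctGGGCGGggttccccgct
These windows held 4 GC boxes in Cdkn2c and 5 in Cdkn2d, and the window at the downstream start of Cdkn2c held 0. Of all windows, 35.7% held at least 1 GC box, 5.49% at least 4 and 2.71% at least 5. The Cdk4 window held 3 GC boxes (2 of them share a base) and the Cdk6 window 0. Each window of Ccnd3 held 2 and that of Cdkn1b 1. Cdkn1a held 0 in its upstream and 2 in its downstream window.

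Rb1 (gene ID 19645, chromosome 14, 73192858 to 73325951), which encodes the substrate of the cyclin D kinases, had 16.8, 12.1 and 11.5 FPKM in shTet1, against 10.4, 8.99 and 9.75 FPKM in shNS. The groups did not overlap, but shTet1 replicate 1 stood well above the other shTet1 libraries. The means were 13.4 ± 2.90 FPKM in shTet1 and 9.71 ± 0.710 FPKM in shNS (SD, n = 3 each), a log2 change of 0.41 (SE 0.14, limma adjusted p = 0.0388). The call was lost without shTet1 replicate 1 (log2 change 0.26). The limma adjusted p was 0.0538 there, 0.0565 without shTet1 replicate 2, 0.0528 without shNS replicate 1, 0.116 without shNS replicate 2 and 0.0959 without shNS replicate 3. The call was kept without shTet1 replicate 3 (limma adjusted p = 0.0251). In the GENCODE annotation, Rcbtb2 and Lpar6 share 8.1% and 6.8% of the exonic bases of Rb1 on the opposite strand. Both also rose, Rcbtb2 to 47.1 ± 9.01 FPKM in shTet1, against 19.8 ± 1.49 FPKM in shNS (limma adjusted p = 0.000422), and Lpar6 to 22.4 ± 6.23 FPKM in shTet1, against 8.85 ± 1.33 FPKM in shNS (limma adjusted p = 0.00170) (SD, n = 3 each). The libraries keep strand, but whether the counting used it is not given in the sources used here, and the part of these neighbours in the Rb1 values was not tested.

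Other members also share exonic bases with genes on the opposite strand, and no member shares any on its own strand. Tspan31 covers 19.7% of the exonic bases of Cdk4. It had 51.9 ± 2.78 FPKM in shTet1 and 45.9 ± 1.63 FPKM in shNS (SD, n = 3 each), a log2 change of 0.17 that did not pass (limma adjusted p = 0.0915) and had the sign opposite to that of Cdk4. With the median-of-ratios scaling Tspan31 passed (log2 change 0.31, limma adjusted p = 0.0128). Oraov1 covers 23.4% of the exonic bases of Ccnd1, with 7.46, 4.73 and 5.01 FPKM in shTet1, against 7.35, 6.69 and 5.02 FPKM in shNS, which did not pass (limma adjusted p = 0.550). For Ccnd2, Ccnd3, Cdk6 and Cdkn1a the largest such share was 7.7%, and for Cdkn1b, Cdkn2c and Cdkn2d it was 0.

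**Figure D4:**
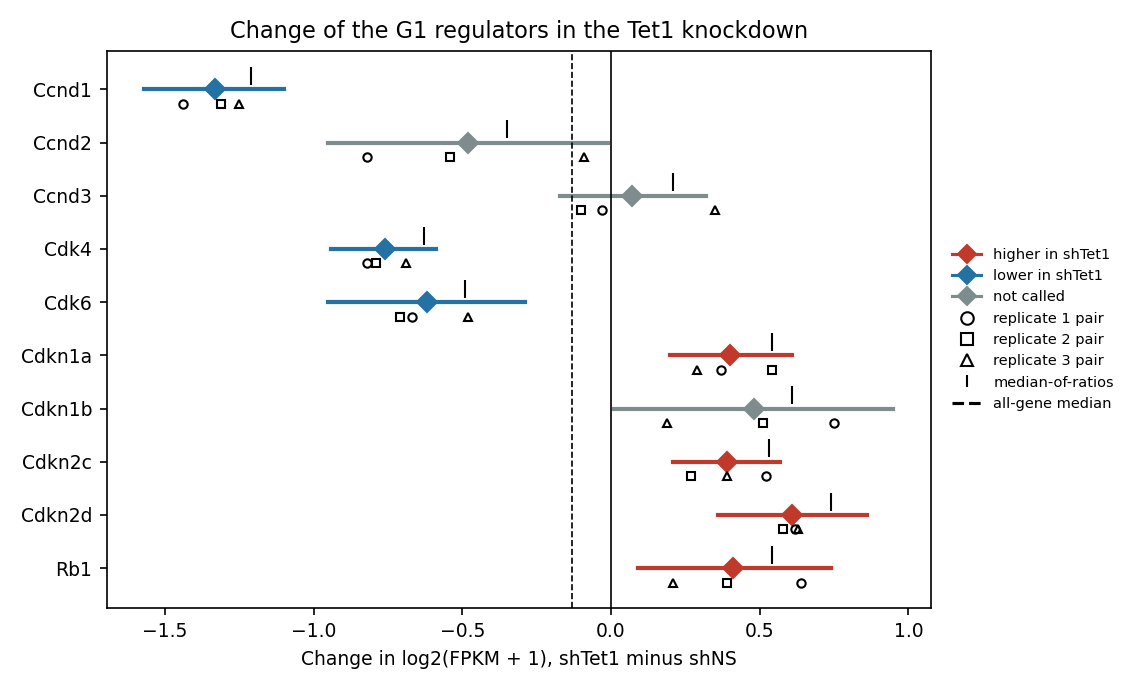
Change in log2(FPKM + 1), shTet1 minus shNS (horizontal axis), of each member: diamonds with 95% intervals from limma, open symbols for the 3 pairs of equal replicate number, and a tick for the median-of-ratios scaling. The 7 called members lie on the same side of 0 in 3 of 3 pairs, as they must where the groups do not overlap. Ccnd2 and Cdkn1b, which were not called, do so too. The changes of the called members run from -1.33 for Ccnd1 to 0.61 for Cdkn2d, and the dashed line is the all-gene median of -0.13.

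Set side by side, the classes moved apart. The summed kinase level was 176, 177 and 198 FPKM in shTet1, against 306, 303 and 308 FPKM in shNS. The summed CIP/KIP level was 139, 138 and 114 FPKM in shTet1, against 102, 94.0 and 93.9 FPKM in shNS, and the summed INK4 level was 98.1, 88.8 and 91.3 FPKM in shTet1, against 66.2, 69.0 and 66.0 FPKM in shNS. None of these sums, which cover the members only and leave out Cdkn2a and Cdkn2b, overlapped between the groups. The ratio of the summed kinase FPKM to the summed FPKM of the 4 inhibitors, formed after the values had been seen, was 0.745, 0.783 and 0.963 in shTet1, against 1.81, 1.86 and 1.93 in shNS. The summed kinase FPKM thus exceeded that of the 4 inhibitors in every shNS library and in no shTet1 library. As the ratio combines members whose changes are given above, its separation is not a further result. It leaves out Cdk2, Cdkn2a and Cdkn2b, and a balance of kinase and inhibitor proteins was not tested. This ratio does not depend on the scaling of libraries.

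By mean level, the order in shTet1 was Cdk4, Cdkn1a, Ccnd3, Cdkn2c, Ccnd2, Cdk6, Cdkn2d, Cdkn1b, Rb1 and Ccnd1. There, the neighbours Cdkn1a and Ccnd3, Cdkn2c and Ccnd2, Ccnd2 and Cdk6, and Cdkn1b and Rb1 overlapped in range. In shNS the order was Cdk4, Ccnd3, Cdkn1a, Ccnd2, Cdk6, Cdkn2c, Ccnd1, Cdkn2d, Cdkn1b and Rb1. There, the ranges of Ccnd3, Cdkn1a, Ccnd2 and Cdk6 overlapped from neighbour to neighbour, as did those of Ccnd1 and Cdkn2d. Ccnd1 took rank 10 in shTet1 and rank 7 in shNS. Among all 11646 tested genes, the members lay from Rb1, with 49.0% of genes below its mean FPKM over the 6 libraries, to Cdk4, with 96.7% below.

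In the authors' deposited table, whose test is not named in the sources used here, 8 of the 10 members passed an adjusted p of 0.05. There, 23.7% of 13839 genes were higher and 22.1% lower. That table also lists Cdkn1b as higher (log2 fold change 0.69, adjusted p 0.00153), and gives Ccnd2 as -0.31 (adjusted p 0.152) and Ccnd3 as 0.20 (adjusted p 0.209). For Ccnd1 the authors' deposited table gives -1.31 (adjusted p 1.42e-22).

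The other lists of the pathway were mostly lower. Of 79 further genes in these lists, 76 were tested, and 3 were higher, 45 lower and 28 not called. Their median log2 change was -0.41, against -0.13 over all genes tested. For this count and those below, the share over all genes tested was 19.4% higher and 33.7% lower. With the median-of-ratios scaling that share was 24.8% higher and 23.7% lower, and of the 76 genes 3 were higher and 38 lower. The list of the members, with 4 higher and 3 lower, had a median of 0.23. These lists were chosen with earlier results of the data known.

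Downstream of the cyclin D kinases, 4 of 5 genes of the cyclin E, cyclin A and CDK2 list fell and 0 rose (median log2 change -0.52). Cdc25a, a phosphatase that activates CDK2, fell to 13.8 ± 3.31 FPKM in shTet1, against 24.1 ± 1.99 FPKM in shNS (SD, n = 3 each; log2 change -0.79, limma adjusted p = 0.00431). Ccna2, the cyclin of S phase, had a log2 change of -0.67, Ccne2 of -0.52 and Cdk2 of -0.34, which did not pass with the median-of-ratios scaling (limma adjusted p = 0.0602). Of the CDK-activating kinase, which phosphorylates cyclin-bound kinases, the cyclin subunit Ccnh fell (log2 change -0.49, limma adjusted p = 0.00225), and Cdk7 and Mnat1 did not pass. The share of this list that fell lay near the 33.7% lower over all genes tested. With replicate numbers as pairs all 3 were lower, against 41.0% of all genes tested, and with shTet1 replicate 1 left out 2 of 3 were.

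Of 10 E2F and DP transcription factor genes, 8 fell and 0 rose, and 6 fell with the median-of-ratios scaling (median log2 change -0.58). E2f3, an activator E2F, had 6.01 ± 0.883 FPKM in shTet1 and 11.5 ± 1.13 FPKM in shNS (SD, n = 3 each; log2 change -0.84, limma adjusted p = 0.000938). The repressor gene E2f6 and the partner genes Tfdp1 and Tfdp2 changed by -0.70, -0.59 and -0.66. Of 12 E2F target genes of S phase entry, 11 fell and 0 rose (median -0.67), and Ccne1 did not pass. With the median-of-ratios scaling 10 of them fell. Mcm5, a subunit of the replicative helicase, fell to 42.8 ± 9.77 FPKM in shTet1, against 81.5 ± 2.80 FPKM in shNS (SD, n = 3 each; log2 change -0.94, limma adjusted p = 0.00127). Cdca7 and the replication clamp gene Pcna changed by -1.19 and -0.60. All 4 mitotic cyclin and CDK1 genes fell (median -0.78), with log2 changes of -0.91 for Cdk1, -0.89 for Ccnb1, -0.67 for Ccna2 and -0.61 for Ccnb2.

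Of the 7 other pocket protein and DREAM genes, a complex that holds cell cycle genes silent in resting cells, 4 fell and 0 rose (median -0.36). Rbl1, which encodes the pocket protein p107, fell to 10.9 ± 1.03 FPKM in shTet1, against 15.8 ± 0.224 FPKM in shNS (SD, n = 3 each; log2 change -0.50, limma adjusted p = 0.00264), in the direction opposite to Rb1. Rbbp4 (-0.64), Lin9 (-0.61) and Lin54 (-0.36) also fell, Lin54 not with the median-of-ratios scaling (limma adjusted p = 0.0614). Of 3 other CDK inhibitors tested, 0 passed in either direction: they included Cdkn2a, with 25.2 ± 1.62 FPKM in shTet1 and 27.1 ± 0.967 FPKM in shNS (SD, n = 3 each; limma adjusted p = 0.329). Its log2 change was -0.10 as deposited and 0.03 when libraries were rescaled by median of ratios. Cdkn3 stood at -0.16 (limma adjusted p = 0.331), and Cdkn1c was not analysed here.

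**Figure D5:**
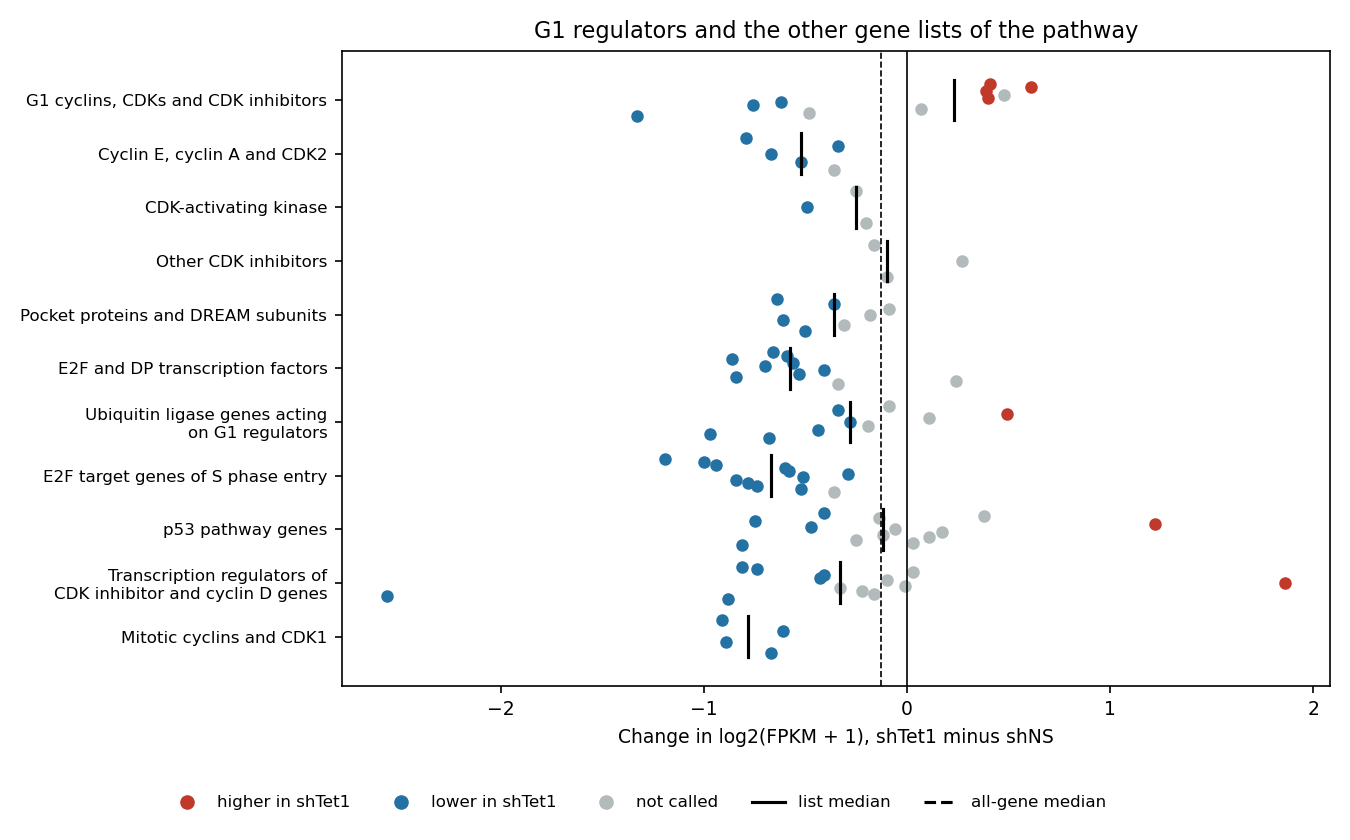
Change in log2(FPKM + 1), shTet1 minus shNS (horizontal axis), of every tested gene of each list, coloured by call, with the list median as a bar and the all-gene median of -0.13 dashed. The G1 regulators have 4 members higher and 3 lower, whereas E2F targets have 11 of 12 lower.

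Genes that act on the members were also read. Of 9 ubiquitin ligase genes, 5 fell and 1 rose (median -0.28), and 3 fell with the median-of-ratios scaling and without shTet1 replicate 2, shNS replicate 1 or shNS replicate 2. Over all genes tested 33.7% fell, and 23.7% with the median-of-ratios scaling. Skp2, the receptor that marks p27 for destruction, fell to 4.73 ± 0.714 FPKM in shTet1, against 8.18 ± 1.02 FPKM in shNS (SD, n = 3 each; log2 change -0.68, limma adjusted p = 0.00293). Its cofactor gene Cks1b fell to 46.6 ± 7.31 FPKM in shTet1, against 91.5 ± 3.37 FPKM in shNS (SD, n = 3 each; log2 change -0.97, limma adjusted p = 0.000431). Skp1a (-0.44), Rbx1 (-0.28) and Fbxo31 (-0.34) fell as well, but under median-of-ratios scaling neither Rbx1 (limma adjusted p = 0.128) nor Fbxo31 (limma adjusted p = 0.160) passed. Fbxo4 rose from a low level, to 3.24 ± 0.415 FPKM in shTet1, against 2.01 ± 0.235 FPKM in shNS (SD, n = 3 each; log2 change 0.49, limma adjusted p = 0.00825). It lay under the 5 FPKM filter of an alternative run and was not tested there. Which of these ligase genes bear on the members was not tested.

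Of 13 p53 pathway genes, 1 rose, 4 fell and 8 did not pass (median -0.12). The share of this list that fell lay near the 33.7% lower over all genes tested, where 19.4% were higher. Cdkn1a is not counted in this list. Trp53, which encodes p53, fell to 34.5 ± 6.30 FPKM in shTet1, against 60.6 ± 3.68 FPKM in shNS (SD, n = 3 each; log2 change -0.81, limma adjusted p = 0.00161). Bbc3, Phlda3 and Ei24 changed by -0.47, -0.75 and -0.41. Btg2, an antiproliferative gene, had 34.1, 17.6 and 11.9 FPKM in shTet1, against 12.2, 5.50 and 6.78 FPKM in shNS (log2 change 1.22, limma adjusted p = 0.0269). Its groups overlapped, replicate 1 was the highest in each, and the call was lost without shTet1 replicate 2, shNS replicate 2 or shNS replicate 3 (highest limma adjusted p = 0.0868). Mdm2, the p53-induced ligase of p53, stood at 0.03 on the log2 scale and did not pass (limma adjusted p = 0.796).

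Of 13 tested transcription regulators of CDK inhibitor and cyclin D genes, 6 fell and 1 rose (median -0.33). Over all genes tested 33.7% fell and 19.4% rose. Klf4, a factor known to activate Cdkn1a, rose to 36.2 ± 4.77 FPKM in shTet1, against 9.31 ± 1.70 FPKM in shNS (SD, n = 3 each; log2 change 1.86, limma adjusted p = 7.91e-05). Myc, known to activate Cdk4 and Ccnd2 and to repress Cdkn1a, changed by -0.88, its paralog Mycn by -2.56, and Ezh2, a polycomb methyltransferase gene, by -0.81.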

How the data were processed

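Polyadenylated RNA of 3 shTet1 and 3 shNS libraries was sequenced with 51-base single-end reads in directional libraries, per the labels' protocols. The authors deposited 1 table, on GRCm38 per the submitters' processing notes. Its 6 deposited library columns were read as FPKM from their values (reads per length and library size, made by the authors) and matched to titles, which also gave groups and replicate numbers. The labels' description field instead gives 1 number to every shNS library and another to every shTet1 library, so the pairs rest on the titles and the check below. The authors also deposited, per the file headers, a mean signal per group, a fold change (a ratio), its log2 and a p-value. Aligner, counter and test: not given in the sources used here.

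limma 3.58.1 (R 4.3.3) with an intensity trend was run on log2(FPKM + 1), keeping a gene that reached 1 FPKM in 3 or more libraries. Group was the sole term, and p-values were two-sided and Benjamini-Hochberg adjusted over all 11646 genes tested. The fit was also run on simulated data in which far fewer genes changed than were called here. That run therefore does not check the fit in the setting of these data. Values divided by the FPKM of a single read came out whole for 100.0% of values (tolerance 0.02 read) and were used for limma-voom and depths. Alternatives were a median-of-ratios scaling, a pseudocount of 0.1, no filter, a 5 FPKM filter, limma-voom, replicate pairs, and libraries left out. Across genes, libraries with the same number deviated together from their groups, with correlations of 0.61, 0.36 and 0.21 for replicates 1, 2 and 3. Each was over 0.1, so numbers were taken as pairs in the alternative fit. For other numbers the range was -0.52 to 0.34. The 0.34 was that of shTet1 replicate 3 with shNS replicate 2, above the 0.21, so the pairing of replicates 2 and 3 is less sure. Gene coordinates are those of RefSeq on GRCm38.p6, and exon overlaps come from GENCODE. Members and lists were chosen with earlier results of these data known. Named genes were all members, and per list up to 4 called genes with the smallest p (the 2 most abundant where none was called) and every gene of a direction with 5 or fewer calls; Cdk7, Mnat1, Ccne1 and Mdm2 were named after their values were seen. Foxo1 was under the filter. Values of some genes that this rule names are not reported here. Class sums are given as values, with no test.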

Additional observations from a re-analysis of the deposited data

How the results depend on the processing

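Ccnd1, Cdk4, Cdk6, Cdkn1a, Cdkn2c and Cdkn2d kept their direction and passed the limma test under every alternative run, each of the 6 libraries left out in turn included. Members counted as higher ranged from 3 to 5 and as lower from 3 to 4 with 1 library left out. The replicate block gave 5 higher and 4 lower, with Cdkn1b and Ccnd2 added, 2692 higher and 4780 lower genes of all tested, and changed no other member's call. With the median-of-ratios scaling and the replicate block together, an alternative added after the data were seen, 3469 genes of all tested were higher (2254 as reported) and 7 of the other pathway genes were higher (3 as reported). The log2 change of Ccnd3 ranged from -0.03 (without shNS replicate 3) to 0.15 with 1 library left out. The difference in Cdkn1a's share of the CIP/KIP sum, -1.03 percentage points (shTet1 minus shNS), ranged from -2.17 to 0.922 with 1 library left out and was 0.333 without both replicate 1 libraries; the cause was not tested. Members rested on 370 reads (Cdkn2d, shNS replicate 3) or more per library, and counting error weighs most on the members with the fewest reads.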

Other observations

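Within the knockdown group the libraries differed in how far the members stood from shNS. On log2(FPKM + 1), shTet1 replicate 3 was the knockdown library nearest to the shNS mean for 7 of the 10 members (Ccnd1, Ccnd2, Cdk4, Cdk6, Cdkn1a, Cdkn1b and Rb1) and for 49.1% of all tested genes. shTet1 replicate 1 was the farthest for 7 members (Ccnd1, Ccnd2, Cdk6, Cdkn1b, Cdkn2c, Cdkn2d and Rb1) and for 43.9% of all tested genes.

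Nearness in profile over the 6 libraries was taken as the Euclidean distance between centred log2(FPKM + 1) values. The search covered tested genes with a mean of at least 5 FPKM and without a predicted-gene or clone symbol. Among these, the nearest genes were named for the member with the largest rise and the member with the largest fall. For Cdkn2d they were Elane (distance 0.07), Gatm (0.08) and Ccdc71l (0.10), and the nearest other member was Rb1 (0.33). Elane, the neutrophil elastase gene of azurophil granules, had 839, 727 and 749 FPKM in shTet1, against 558, 497 and 477 FPKM in shNS. For Ccnd1 they were Myl6b (0.15), Runx3 (0.15) and Padi4 (0.16), and the nearest other member was Cdk4 (0.74). The libraries fall into 2 groups, so any gene with a change of like size is near.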
